A study of Mus musculus with 6 samples.

Results

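The small leucine-rich proteoglycans are secreted matrix proteins, and 10 of their genes were examined in the RPE/choroid of the mouse: Dcn, Bgn, Aspn, Fmod, Lum, Prelp, Kera, Omd, Epyc and Ogn. They were picked as members of this family and matched by gene symbol to the 33924 genes of the deposited table, where all 10 were found. The RPE/choroid is the pigmented epithelium under the neural retina together with the vascular layer behind it, here scraped off the sclera after the front of the eye and the neural retina had been taken away. Total RNA freed of ribosomal RNA, with no selection for poly(A) tails, was sequenced from 6 libraries of C57BL/6J mice with no transgene or treatment, all labelled male. The 3 young mice were labelled 1 to 2 months old, and the 3 aged mice were labelled 20 to 24 months in their titles and 22 to 24 months in a further label. The study's methods differ from the labels in naming both sexes and a somewhat older young group. Each gene had 1 value to use, the authors' mean normalized count over all 6 libraries, which pools both ages. The level in each library, its spread and the depth of each library were not analysed here, so no error stands beside a level, no test was made, and young and aged mice are not compared.

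Small leucine-rich proteoglycans have a curved core protein built of leucine-rich repeats, to which chondroitin, dermatan or keratan sulfate chains may be attached. Many of them bind collagen and limit the width and spacing of its fibrils, and several also bind growth factors or cell surface receptors. In the eye they are best known from the sclera and from the corneal stroma, and in the latter lumican and keratocan keep fibrils regularly spaced. Class I holds decorin (Dcn), biglycan (Bgn) and asporin (Aspn). Class II holds fibromodulin (Fmod), lumican (Lum), prolargin (Prelp), keratocan (Kera) and osteomodulin (Omd), and class III holds epiphycan (Epyc), osteoglycin (Ogn) and opticin (Optc), the last of which was not among the genes chosen.

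The promoters of 4 members are shown because their genes differ widely in level among the 8 members with a window: Bgn and Ogn had the highest levels of these per kilobase of coding sequence, Omd lies next to Ogn on the same strand at a much lower level, and Epyc had the lowest level of all. The sequences are the RefSeq windows of GRCm38.p6 from 250 bases before to 50 bases after the annotated start, read 5′ to 3′ on the gene's strand, which is the plus strand for all 4. They lie at chrX:73483351-73483650 for Bgn, chr13:49607765-49608064 for Ogn, chr13:49582212-49582511 for Omd and chr10:97643818-97644117 for Epyc. Capitals mark every match, on either strand, to TATAAA (the TATA box), to CCAAT (the box of that name) or to GGGCGG (the GC box).
Bgn: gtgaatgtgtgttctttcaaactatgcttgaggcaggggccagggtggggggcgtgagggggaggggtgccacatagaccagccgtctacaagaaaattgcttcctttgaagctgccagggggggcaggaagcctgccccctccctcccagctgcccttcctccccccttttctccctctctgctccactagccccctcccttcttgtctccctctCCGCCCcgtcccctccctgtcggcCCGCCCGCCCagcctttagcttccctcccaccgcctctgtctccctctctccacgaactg
Ogn: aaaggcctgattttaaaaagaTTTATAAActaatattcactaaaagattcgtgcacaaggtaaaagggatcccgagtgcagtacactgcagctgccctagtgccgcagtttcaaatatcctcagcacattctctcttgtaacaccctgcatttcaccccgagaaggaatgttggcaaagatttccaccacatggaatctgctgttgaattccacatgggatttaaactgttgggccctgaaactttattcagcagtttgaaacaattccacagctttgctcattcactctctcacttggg
Omd: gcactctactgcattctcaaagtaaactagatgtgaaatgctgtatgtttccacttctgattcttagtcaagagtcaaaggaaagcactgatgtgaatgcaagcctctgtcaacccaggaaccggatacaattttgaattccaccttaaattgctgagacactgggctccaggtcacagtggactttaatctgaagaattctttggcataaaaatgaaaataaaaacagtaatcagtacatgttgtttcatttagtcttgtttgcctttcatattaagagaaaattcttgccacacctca
Epyc: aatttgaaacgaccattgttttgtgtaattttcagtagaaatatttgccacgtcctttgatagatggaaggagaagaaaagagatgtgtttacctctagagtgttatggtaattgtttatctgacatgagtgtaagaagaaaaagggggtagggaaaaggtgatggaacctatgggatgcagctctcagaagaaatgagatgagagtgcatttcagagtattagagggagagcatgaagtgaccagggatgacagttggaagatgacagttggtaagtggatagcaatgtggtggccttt

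Of the 10 members, 8 had a RefSeq window, and those of Dcn and Lum were not analysed here. GGGCGG matched in 1 of the 8, Bgn, 3 times on the minus strand, where 2 matches overlapped. It was found in 35.7% of the 32851 promoter windows of the same length. TATAAA matched in Ogn and Aspn, far upstream of the start at positions -229 to -178, against 13.6% of all windows. In Ogn its 2 matches lie on opposite strands and overlap. CCAAT matched in 4 of the 8, Fmod, Aspn, Prelp and Kera, against 37.4% of all windows, and Kera held 3 matches. The windows searched for Omd and Epyc held none of the 3. Epyc has 2 RefSeq windows, of which the one nearest the GENCODE start is printed and was searched. The windows also differed in base composition, with a GC content of 63.7% for Bgn, 42.3% for Ogn, 37.7% for Omd and 40.3% for Epyc, and with the lowest value for Aspn. RefSeq's start of Kera lies 326 bases from the start in the GENCODE annotation, so its window covers another stretch than the GENCODE start would give. A match is a run of letters and says nothing of whether a factor was bound.

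Decorin dominated the 10 members. The deposited mean of Dcn was 43430 normalized counts, the 27th highest of all 33924 genes, and it made up 56.3% of the members' summed mean. The 10 genes together held 77073 normalized counts, or 0.402% of the sum over the table, of which Dcn alone held 0.226%. As deposited, the other 9 means ran from 9187 for Lum through 8662 for Bgn, 5830 for Fmod, 5538 for Ogn, 1867 for Aspn, 1373 for Prelp, 570 for Omd and 397 for Kera to 219 for Epyc. Every member thus lay far above a mean of 10, the lowest level kept in one of the rankings described in the closing section.

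A long transcript yields more reads than a short one at the same number of molecules, so beyond these deposited means genes were compared after dividing by length. The authors quantified TPM, which is already divided by transcript length, before turning it into normalized counts, so this step may correct for length a second time. Among protein-coding genes with a mean of at least 10, the deposited means largely rose with the length of the longest annotated transcript. Their median was 218 normalized counts in the tenth with the shortest transcripts and 1201 in the tenth with the longest. Whether the deposited values were already corrected for length cannot be told from this trend. Unless said otherwise, a level below is the deposited mean per kilobase of coding sequence, written per kb. The median of the 16468 protein-coding genes with a mean above 0 was 228 per kb and their 95th percentile 3021 per kb.

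**Figure D1:**
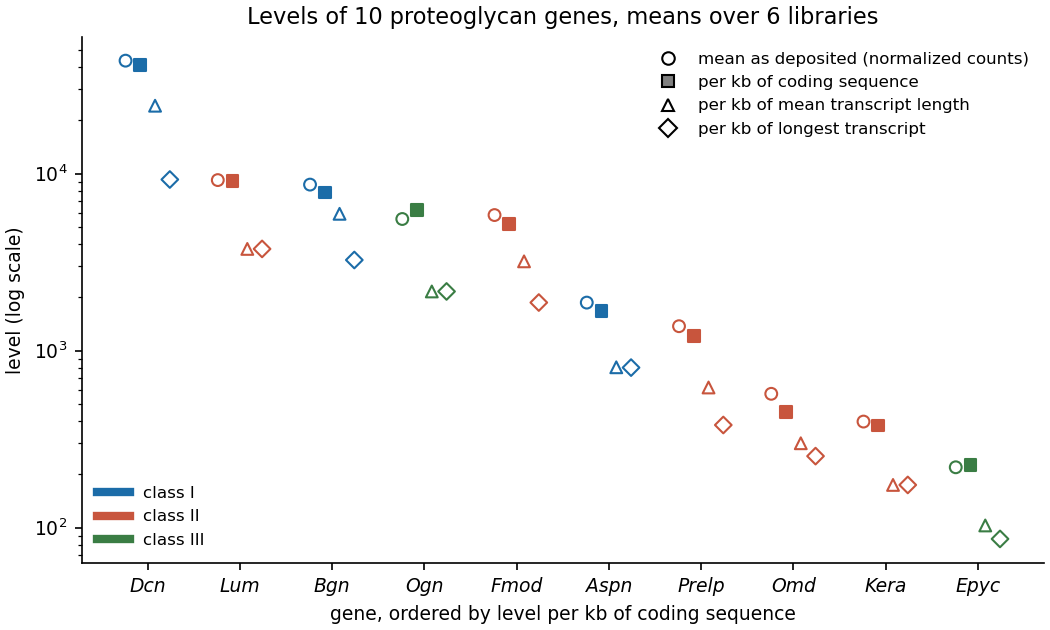
The y axis gives the level on a log scale for each of the 10 genes on the x axis, as the deposited mean over 6 libraries (circles, normalized counts) and divided by coding, mean transcript or longest transcript length (squares, triangles and diamonds, normalized counts per kb), with colors for the classes. Dcn stands first on all 4 scales and Epyc last, from 40894 to 227 per kb of coding sequence, while Lum, Bgn, Ogn and Fmod lie close together. There is 1 pooled value per gene, so no error bars are drawn.

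On this scale 5 of the 10 members lay above the 95th percentile of protein-coding genes. Dcn reached 40894 per kb, followed by Lum at 9060, Bgn at 7825, Ogn at 6194 and Fmod at 5168 per kb. Below them came Aspn at 1668, Prelp at 1211, Omd at 449, Kera at 377 and Epyc at 227 per kb. The widest steps in this order were 4.51-fold from Dcn to Lum, 3.10-fold from Fmod to Aspn and 2.70-fold from Prelp to Omd. The last depended on the length used: per kb of longest transcript, Prelp stood at 380 and Omd at 253. That step was smaller than the 2.02-fold from Kera to Epyc on the same scale. Of the 10 members, 9 lay above the median of protein-coding genes, and Epyc lay almost at it. The median of the members was 3418 per kb. Lum exceeded Bgn by 1.16-fold, Bgn exceeded Ogn by 1.26-fold, Ogn exceeded Fmod by 1.20-fold and Omd exceeded Kera by 1.19-fold, and without replicate values it is not known whether any of these neighbors differed beyond their spread. Dividing by the longest transcript kept all 10 places, but dividing by the mean transcript length exchanged Lum with Bgn and Ogn with Fmod. The lead of Dcn over Lum was 2.47-fold by longest transcript and 6.44-fold by mean transcript length.

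**Figure D2:**
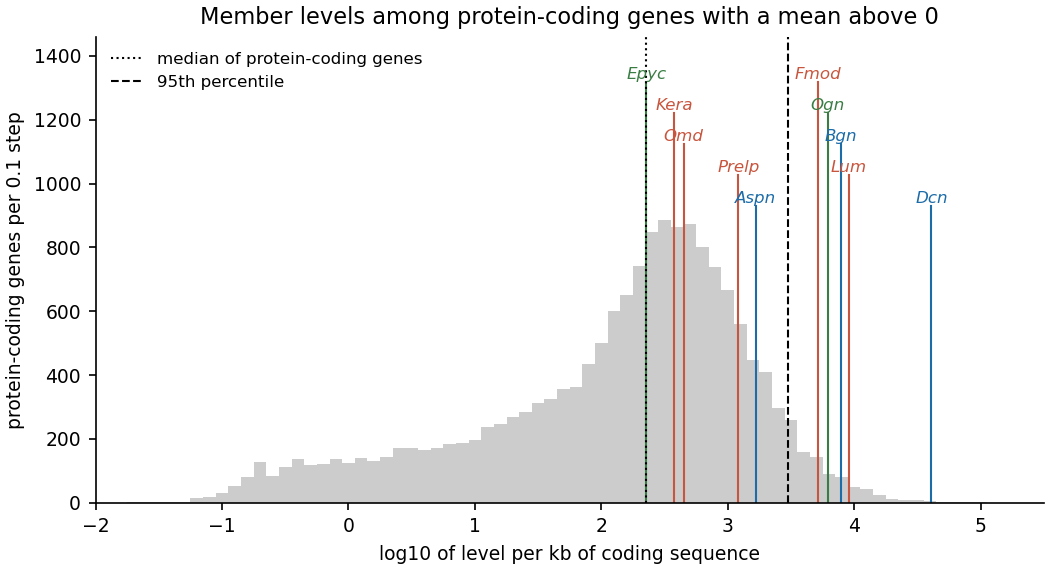
The x axis gives the log10 of the level per kb of coding sequence and the gray bars the number of protein-coding genes in each step of 0.1, for the 16468 genes with a mean above 0, with 1 colored line for each member. The lines of Dcn, Lum, Bgn, Ogn and Fmod lie to the right of the dashed 95th percentile at 3021 per kb, and that of Epyc lies on the dotted median at 228 per kb.

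Class I held 69.0% of the members' summed level per kb, with 56.0% in Dcn, 10.7% in Bgn and 2.28% in Aspn. Decorin, a collagen-binding proteoglycan that also binds transforming growth factor beta, was higher than 99.9% of protein-coding genes. Biglycan, its nearest relative, which besides binding collagen acts as a ligand of Toll-like receptors, stood above 98.7% of protein-coding genes. It lay 5.23-fold below Dcn per kb of coding sequence, 2.85-fold by longest transcript and 4.08-fold by mean transcript length. Asporin, named for the run of aspartates near the start of its protein, stood above 89.5% of them. It lay 24.5-fold below Dcn per kb of coding sequence, 11.5-fold by longest transcript and still further by mean transcript length.

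Class II held 22.3% of the summed level, and its 5 genes spread over 24.0-fold. Lumican, a keratan sulfate proteoglycan needed for a clear cornea, was the highest of the class at 9060 per kb. Keratocan, the proteoglycan most closely tied to the corneal stroma, was the lowest at 377 per kb and still above 61.5% of protein-coding genes. Fibromodulin, which guides the assembly and crosslinking of collagen fibrils, stood at 5168 per kb, 4.27-fold above prolargin, which has a basic stretch that binds heparin. Osteomodulin, a keratan sulfate proteoglycan known from bone, stood at 449 per kb.

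Epyc and Ogn of class III held the remaining 8.79%, with Ogn at place 4 of the order and Epyc last. Osteoglycin, or mimecan, abundant in many connective tissues, reached 6194 per kb and lay above 98.2% of protein-coding genes. Epiphycan, known from the growth plate of cartilage, lay 27.3-fold lower and above 49.9% of them.

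The members lie in 3 groups on the chromosomes and 1 gene apart. On chromosome 10 (GRCm38), Dcn, Lum, Kera and Epyc follow one another on the plus strand within 202.846 kb, from 97479609 to 97682454, with gaps of 46.984, 34.175 and 30.375 kb. Their levels fell from each gene to the next along the strand, from 40894 to 9060, 377 and 227 per kb, so this group held both the highest and the lowest member and 69.2% of the summed level. Dcn and Epyc were 180-fold apart per kb of coding sequence, 107-fold by longest transcript and 235-fold by mean transcript length. On chromosome 13, Aspn, Omd and Ogn share the plus strand within 80.059 kb, from 49544443 to 49624501, with gaps of 14.896 and 15.223 kb. Here the gene in the middle was lowest: Aspn stood at 1668, Omd at 449 and Ogn at 6194 per kb, and Ogn exceeded Omd by 13.8-fold per kb of coding sequence, 8.52-fold by longest transcript and 7.20-fold by mean transcript length. On chromosome 1, Prelp on the minus strand and Fmod on the plus strand point away from each other within 137.974 kb, from 133910304 to 134048277. Bgn lies alone on chromosome X, from 73483602 to 73495933 on the plus strand.

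**Figure D3:**
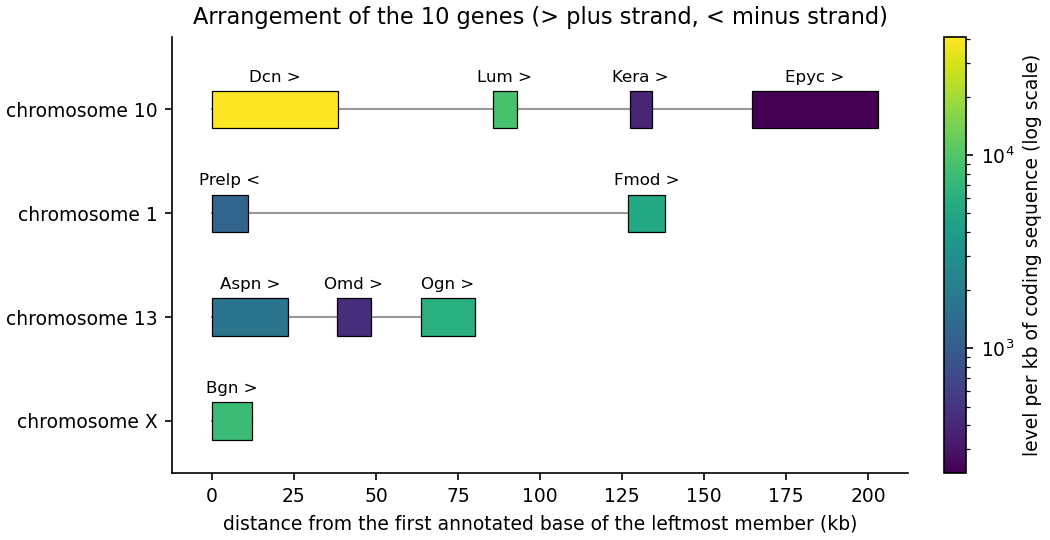
Each row is 1 chromosome, the x axis is the distance in kb from the first annotated base of the leftmost member, boxes are whole genes with their introns, and the color gives the level per kb of coding sequence on a log scale. The box colors darken from Dcn at 40894 per kb to Epyc at 227 per kb along chromosome 10, whereas on chromosome 13 Omd at 449 per kb is darker than the genes on both sides.

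Related genes of the wider family adjoin these groups. Ecm2, a matrix protein with leucine-rich repeats, lies before Aspn and stood at 504 per kb. Optc, the gene of opticin, a class III proteoglycan of the vitreous, lies beside Prelp and stood at 387 per kb. Both were below every one of the 5 highest members and above Epyc. Some members share ground with genes on the opposite strand. Cenpp, chosen for mention after its value was seen, is a centromere protein gene that spans Aspn, Omd and Ogn on the minus strand, and it had a mean of 49.1 normalized counts. Gm15851 overlaps Prelp in antisense with a mean of 3.07 normalized counts, and Gm10754 overlaps Epyc with a mean of 0. The library kit keeps strand, but whether the counting used it is not given in the sources used here, so reads of overlapping genes may not be fully separated.

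The exon structure followed the classes. The genes of class I have 8 exons, those of class II have 3 or 4 and Epyc and Ogn of class III have 7, counted in the transcript with the longest coding sequence. The coding sequences are of similar length, from 298 codons in Ogn to 423 in Omd. Their GC content ran from 35.8% in Omd to 56.5% in Prelp, and the 5 highest members covered most of that range, from 38.5% in Ogn to 56.4% in Fmod. Between members of the same class, 49.3 to 61.9% of bases were identical after alignment (14 pairs, median 53.0%), against 46.0 to 51.3% between classes (31 pairs, median 48.7%). Alignments of the members with 8 other leucine-rich repeat proteins gave 41.9 to 53.5% (80 pairs, median 48.0%). The highest of these was Epyc with Optc of its own class at 53.5%, against 52.9% for Epyc with Ogn. The most similar pair was Dcn and Bgn at 61.9%, then Prelp and Kera at 57.4%, Bgn and Aspn at 56.8% and Fmod and Lum at 55.9%. These pairs were 5.23-fold, 3.21-fold, 4.69-fold and 1.75-fold apart in level per kb of coding sequence, in the same order. Some other pairs of the same class lay further apart: Dcn and Aspn, 55.6% identical, were 24.5-fold apart on this scale. Lum and Kera, at 53.1% near the median of same-class pairs, were 24.0-fold apart per kb of coding sequence. By longest or mean transcript length they were 21.5-fold apart.

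**Figure D4:**
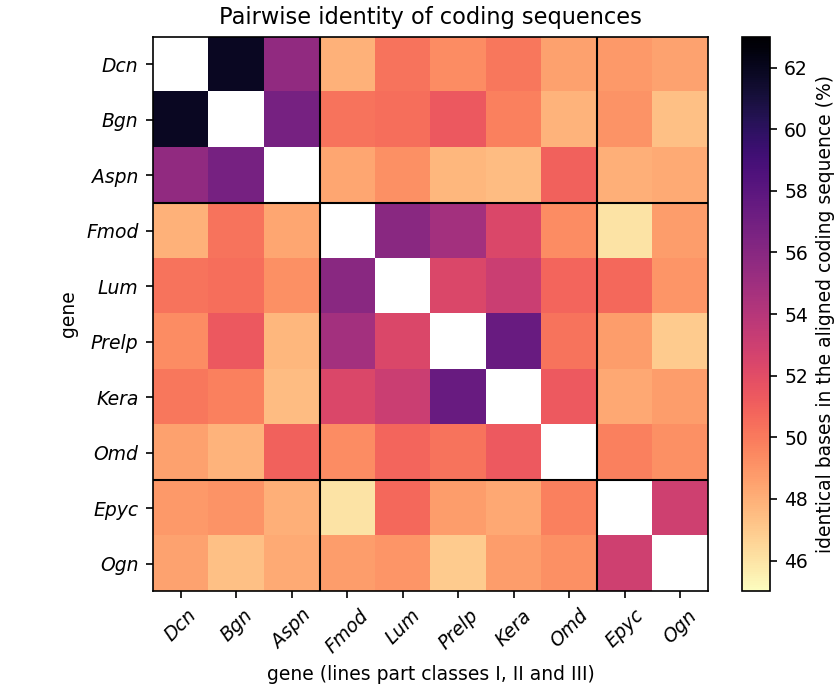
Both axes list the 10 genes, the color gives the percentage of identical bases in the aligned coding sequences of a pair, and lines separate the classes. The darkest cell is Dcn with Bgn at 61.9%, and the cells between classes stay within 46.0 to 51.3%.

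Apart from the overlaps with genes on the opposite strand, most of the members' transcript sequence was their own. Of the 31-base words in the transcripts of 9 members, between 99.8% and 100% occurred in the transcripts of no other gene, and in Omd the share was 94.6%. The few shared words were spread over 1427 other genes for Dcn, 1411 for Bgn, 529 for Omd and 3 for Lum. Words were compared on the transcript strand only, so matches to the opposite strand were not searched.

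The proteins that members bind or resemble were set beside them on the same scale. Among 8 fibrillar collagens, the main partners of the family, the levels ran from 28.0 to 15686 per kb with a median of 1196, and 6 lay above the median of protein-coding genes. Col1a2 at 15686 and Col1a1 at 10518, the chains of type I collagen, were below Dcn and above every other member, and Col3a1, which encodes type III collagen, was at 8098 per kb, between Lum and Bgn. The collagens have long coding sequences, and as deposited the order turned: Col1a2 at 64562 and Col1a1 at 45848 normalized counts exceeded Dcn at 43430, and Col3a1 at 35566 exceeded every other member. The median of the collagens was then 5838 normalized counts, above the members' 3702. Among 8 other leucine-rich repeat proteins, which include Optc of class III, none reached the 95th percentile, and the median was 206 per kb. Ecm2, Optc and Chad, which encodes chondroadherin of cartilage, had the highest means of these and stood at 504, 387 and 364 per kb. Among 9 receptors and ligands, all lay above the median of protein-coding genes and none above the 95th percentile, from 229 to 2693 per kb. As deposited, 8 lay above that median and 3 above the 95th percentile. The genes with the highest deposited means were Lrp1, an endocytic receptor that takes up decorin, and the receptor tyrosine kinases Met and Egfr, both of which bind decorin. As deposited, Lrp1 had 36712 and Met 10382 normalized counts. Per kb, Lrp1 stood at 2693, Met at 2510 and Egfr at 1195, and the growth factor gene Tgfb3, named after its value was seen, came between Lrp1 and Met at 2655.

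The genes for enzymes that build the sugar chains had lower medians than the members, but their ranges overlapped. Of 22 genes for the linkage region and for chondroitin or dermatan sulfate, 14 lay above the median of protein-coding genes and 0 above the 95th percentile, and their median was 342 per kb. The genes with the highest deposited means were Fam20b, the kinase that phosphorylates the linkage xylose, at 2152 per kb, Csgalnact2, which starts the chondroitin chain, at 1053 per kb, and Dse, the epimerase that turns chondroitin into dermatan sulfate, at 590 per kb. Fam20b thus exceeded Aspn, Prelp, Omd, Kera and Epyc. Of 5 genes for keratan sulfate, 2 lay above the median, and their median was 157 per kb. Here the galactosyltransferase gene B4galt4 stood at 756 per kb, the sulfotransferase gene Chst2 at 741 per kb and the sulfotransferase gene Chst1 at 157 per kb.

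**Figure D5:**
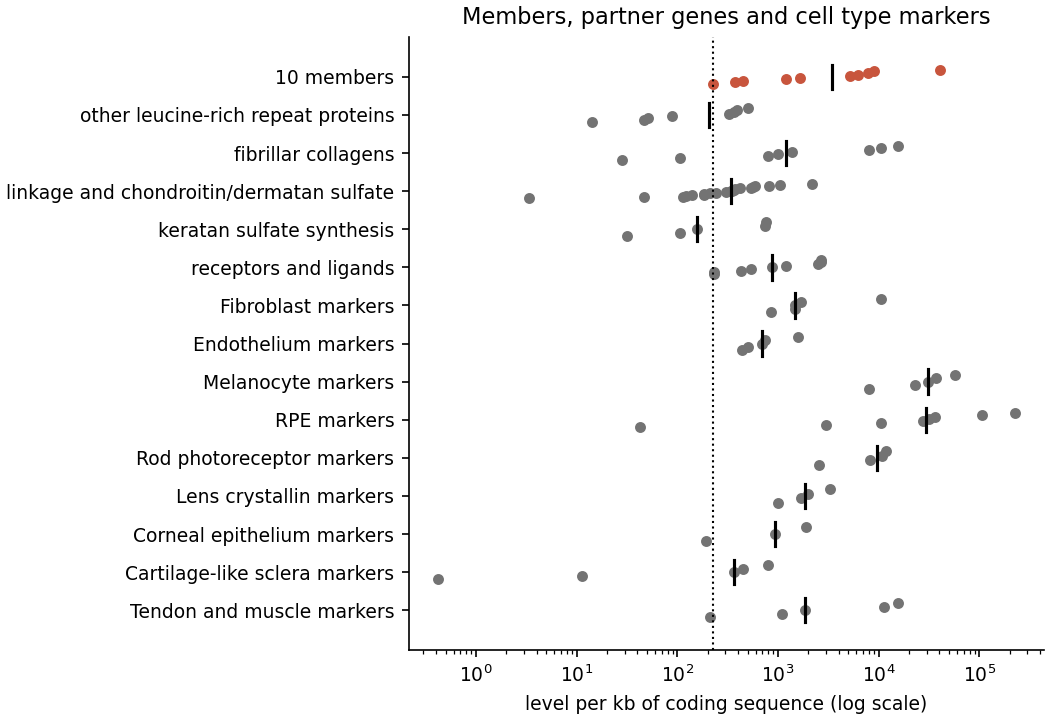
Each point is 1 gene at its level per kb of coding sequence on a log x axis, rows are the 10 members (red), the lists of partner and synthesis genes and the marker lists, black ticks are medians, and the dotted line is the median of protein-coding genes at 228 per kb. The members have a median of 3418 per kb, above those of both synthesis lists at 342 and 157 and, on this scale but not as deposited, of the collagens at 1196.

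Markers of the RPE and of melanocytes were mostly abundant, and so were some of other ocular tissues. Of 8 RPE markers, 6 lay above the 95th percentile of protein-coding genes, with a median of 29484 per kb, and the lowest, Best1, stood at 42.2 per kb. All 5 melanocyte markers, which mark the pigment cells of the choroid but are largely shared with the RPE, lay above it, from 7995 to 57476 per kb. The 5 markers of fibroblasts, the cells that usually make these proteoglycans, ran from 849 to 10518 per kb, with Col1a1 counted here and among the collagens. The 5 endothelial markers ran from 436 to 1580 per kb. Per kb, 1 fibroblast marker and 0 endothelial markers lay above the 95th percentile, against 3 and 2 as deposited. In bulk tissue, a lower level from fewer cells of a type cannot be told apart from less RNA per cell.

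Markers listed for several tissues that the dissection was meant to remove were also detected. The 4 markers of rod photoreceptors that are given here ran from 2526 to 11746 per kb. Among 5 tendon and muscle markers, from 210 to 15421 per kb, Acta1 and Ckm of skeletal muscle reached 15421 and 11320 per kb and Tnmd of tendon 1843 per kb. The 4 lens crystallins ran from 1003 to 3256 per kb. Of the corneal epithelial markers, 3 of 4 were in the table, with Krt12 at 1885, Krt5 at 943 and Krt14 at 191 per kb, beside the 377 per kb of Kera. Among 5 markers of cartilage-like sclera, Matn1 had a mean of 0.627 normalized counts and Acan stood at 11.2 per kb, while Chad stood at 364, Cytl1 at 448 and Comp, which tendon also makes, at 788 per kb, beside the 227 per kb of Epyc. No marker found in the table had a mean of 0. Whether these tissues themselves were present was not tested. How these levels were spread over the 6 libraries, and the part of each tissue in the members' levels, was not tested either.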

How the data were processed

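RPE/choroid total RNA of 3 young and 3 aged mice was sequenced from stranded libraries freed of ribosomal RNA. Per the labels and the study's methods, the authors used BBDuk for trimming, STAR for alignment to GRCm38 (Ensembl release 82) and Sailfish 0.9.0 for quantification as TPM, a unit already divided by transcript length, then turned these into normalized counts by total count and compared the ages with DESeq2. The deposited signal column holds the authors' mean normalized count per gene over all 6 libraries. The remaining columns hold the authors' own comparison of ages (fold change, its error, statistic, p-value and adjusted p-value) and were not used. With no value per library, the planned test of aged against young mice was not run, and the depth and precision of each library were not analysed here.

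Of the 33924 symbols, 28553 matched the GENCODE M21 annotation of GRCm38, which gave coding and transcript lengths. Means were divided by length in kilobases. How the authors' normalized counts were derived from TPM is not given in further detail in the sources used here, so dividing by length may correct for it a second time. Percentiles were taken among protein-coding genes with a mean above 0. Coding sequences were aligned pairwise over their whole length with free end gaps. RefSeq promoter windows were searched on both strands. Functions were tested on made-up input. Python 3.11.15, pandas 2.3.3, numpy 2.4.6, biopython 1.88 and matplotlib 3.10.9 were used. The members and lists were chosen with earlier results of these data known. Besides the members, the 3 genes of each partner list with the highest mean and adjoining listed genes were named. Of the marker lists, the ends of a range and defining markers were named after their values were seen. One listed marker is not reported here.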

Additional observations from a re-analysis of the deposited data

How the results depend on the processing

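The share of the members' summed mean held by Dcn was 56.3% as deposited, 56.0% per kb of coding sequence and 42.1% per kb of the longest transcript, and 58.7% per kb of the mean transcript length, whose use for this share was added after seeing the data. The members' share of the table was 0.402%, 0.432% without the 10 genes with the highest means, and 0.456% of the sum over protein-coding genes. Compared with the order per kb of coding sequence, 4 members changed place by mean transcript length and 0 by longest transcript. The percentile of Epyc was 59.8 among all genes with a mean above 0, 42.5 among protein-coding genes, 40.3 among genes with a mean of at least 10 and 49.9 per kb of coding sequence, and that of Dcn stayed between 99.8 and 99.9. The median of the members was 2.86 times that of the fibrillar collagens per kb of coding sequence and 0.634 times that as deposited, so this order reversed. As deposited, 6 collagens and 3 receptors and ligands passed the 95th percentile of protein-coding genes, against 3 and 0 per kb. The members' median stayed above those of the other 4 lists on both scales. Percentiles per kb and deposited values of the lists were added after seeing the data.

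No paired analysis was possible because the value used for each gene is a single mean over all 6 libraries. For the same reason the planned age comparison and its alternatives, which were the replicate block, leaving out each replicate, other normalizations, filters and tests, were not run. Depth per library was not analysed here, no level has an error, and the mean does not show whether 1 library decides it.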
